A study of Oryza sativa with 2 samples.

Results

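Rice (Oryza sativa) small RNA loci were listed in long rows at 16 places of the nuclear genome outside the large array of chromosome 3, and these rows are described here. They were found by position alone. The loci of both deposited lists were joined by name, loci on the same chromosome and strand were chained where the gap between neighbours was at most 500 nt, and chains of 5 or more nuclear loci were kept. The array on the minus strand of chromosome 3 between 31172423 and 31182643 was left out. The rule gave 16 clusters with 93 of the 1349 listed loci. Clusters are called A to P in the order of their chromosomes and positions.

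Small nucleolar RNAs (snoRNAs) are the RNA class best known for such rows in plants. They guide enzymes to chosen bases of ribosomal RNA. The box C/D kind guides 2′-O-methylation and is usually the shorter, and the box H/ACA kind guides conversion of uridine to pseudouridine and usually folds into a pair of hairpins. In plants several snoRNA genes often share 1 precursor transcript, which is cut and trimmed into the separate RNAs, and in rice such rows are also known inside introns of protein-coding genes. The deposited lists name no RNA class, and no RNA sequence was used here, so no locus is assigned to either kind.

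The study had 2 libraries, 1 per developmental stage, made from RNA of 50 to 500 nt that was ligated to adaptors at both ends and read by pyrosequencing of cDNA that was not amplified. The stage 2 library is labelled anther, pistil and grouting embryo and held 117798 reads at 1163 loci. The stage 1 library is labelled coleoptiles, radicals, shoot and tillering leaves and held 80651 reads at 838 loci. Whether the tissues of a stage were pooled is not stated, and the lists hold no gene names against which the tissue labels could be checked. A single library stands for each stage, so no error between replicates and no test can be had, and every comparison is between these libraries. Ratios are reads per 1000000 library reads in stage 2 over stage 1, with exact 95% intervals that cover counting error only. The median of the 483 loci with 20 or more reads had a ratio of 1.39 (0.47 on the log2 scale). Ratios divided by it are given as "relative to the median locus". The median was treated as known, so intervals of such ratios leave out its own error. Locus names are those of the lists, all beginning JNnc_loci, and the sources used here do not name the genome build of the positions.

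The clusters lay on 8 chromosomes, 9 of them on the plus strand and 7 on the minus strand. Chromosome 6 held 4, at 922317 to 923568 (J), 6783228 to 6785013 (K), 28263641 to 28264786 (L) and 28445677 to 28446660 (M), all on the plus strand. Chromosome 3 also held 4, at 5158308 to 5159089 (D, minus), 12318162 to 12318914 (E, plus), 16787267 to 16788636 (F, plus) and 27337853 to 27339296 (G, minus). Chromosome 2 held B at 782630 to 784757 on the minus strand and C at 26257572 to 26258989 on the plus strand. Chromosome 5 held H at 3009137 to 3010195 and its neighbour I at 3010772 to 3011841, both on the minus strand. Chromosomes 1, 7, 11 and 12 held 1 each, which are A at 9658272 to 9659795 (minus), N at 2028645 to 2030316 (minus), O at 28281849 to 28283088 (plus) and P at 22484241 to 22485051 (plus). The longest row was N with 9 loci, followed by C with 8 and B with 7, while 4 clusters had 6 loci and 9 had 5.

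The rows were compact. A cluster spanned 753 to 2128 nt, with a median of 1246 nt, and the listed RNAs covered 32.3% of B at the low end and 64.9% of C at the high end. The 77 gaps between neighbours ran from 43 to 449 nt with a median of 95 nt and quartiles of 68 and 177 nt, and 55 of them were under 130 nt. The gaps nearest to the limit of the rule were 449 nt in B and 441 nt in A on the inside. On the outside, 576 nt separated H from I, and 698 nt separated K from the single locus JNnc_loci0749. The other clusters stood alone on their strand, with the nearest listed locus 3067 nt away for A, 9832 nt away for E and 56592 nt or more away for the remainder. No listed locus of the opposite strand lay inside a cluster, and the nearest one was 35287 nt from B.

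**Figure D1:**
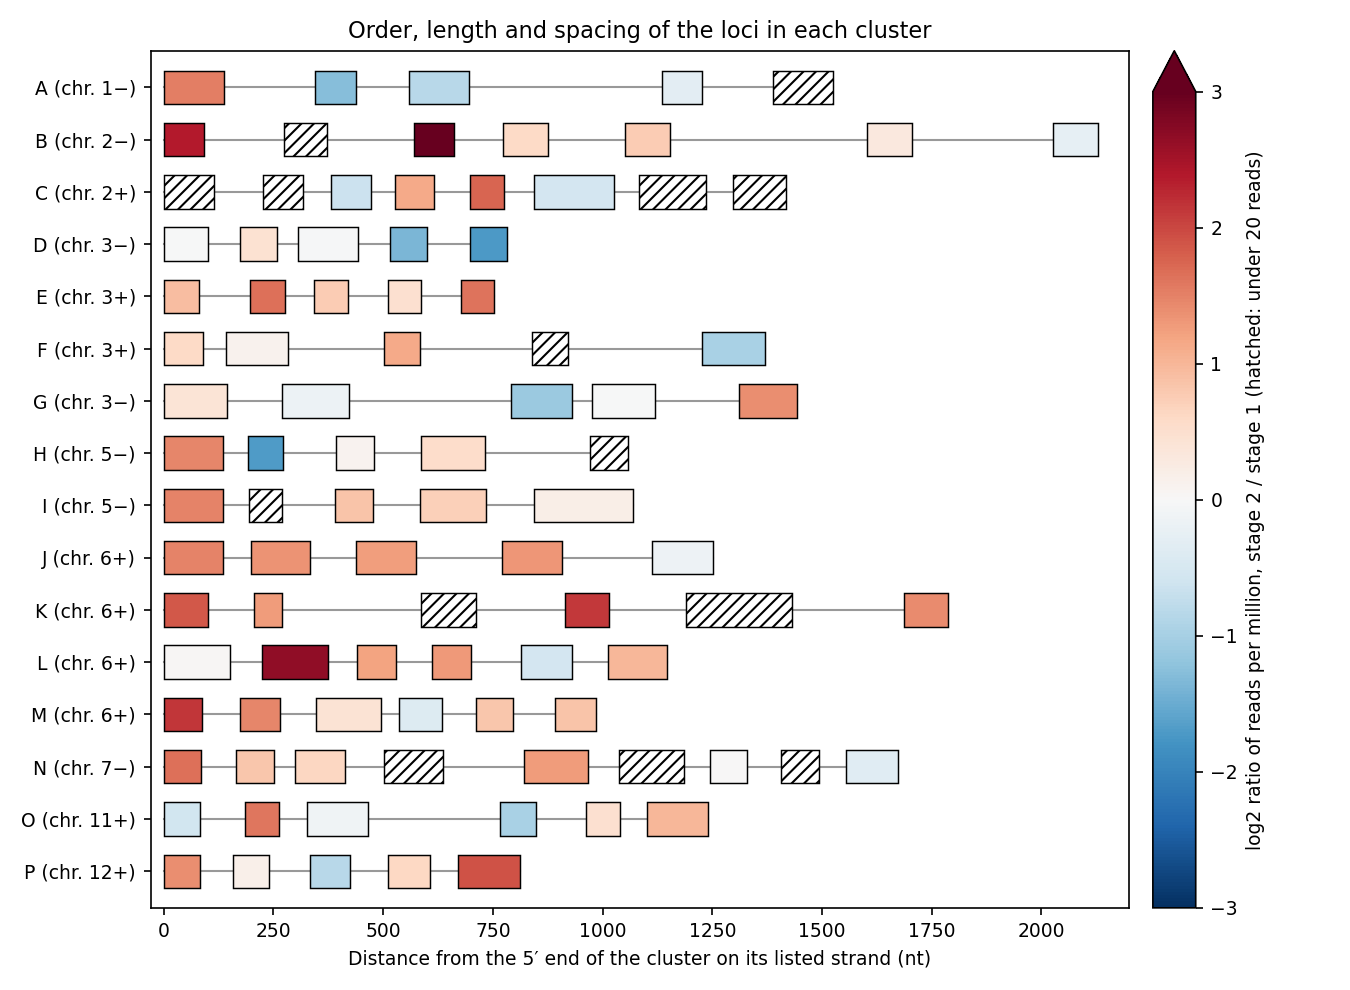
Order, length and spacing of the loci of each cluster, drawn from the 5′ end of its listed strand (x axis, distance in nt), with each box coloured by its log2 ratio of stage 2 over stage 1. Boxes under 20 reads are hatched, and JNnc_loci0164, the third box of B, lies beyond the end of the colour scale at 4.0. B spans 2128 nt and E 753 nt, and boxes of unlike colour stand side by side in most rows.

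Lengths fell into separate groups. Of the 93 loci, 53 measured 65 to 102 nt, 37 measured 115 to 153 nt and 3 were longer, at 183, 226 and 242 nt. No member fell between 103 and 114 nt, a stretch that held 70 of the 1188 other nuclear loci (5.89%). Loci of 115 to 153 nt made up 39.8% of the members and 15.3% of the other nuclear loci. No member was under 65 nt, against 252 (21.2%) of the other nuclear loci. The contrast is mainly with single loci, which made up 247 of those 252, beside 5 (1.82%) of the smaller clusters' loci and 0 of the array's. Loci of 115 to 153 nt were likewise 34.2% of the array and 27.6% of the smaller clusters, against 10.6% of single loci. The bounds are those of the members themselves and were placed after the lengths were seen, and loci that share a cluster may be copies of one another, so members are not independent draws. The members' median length was 100 nt, against 94 nt for the 275 loci of smaller nuclear clusters, 103 nt for the 38 loci of the chromosome 3 array and 82 nt for the 875 single nuclear loci.

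**Figure D2:**
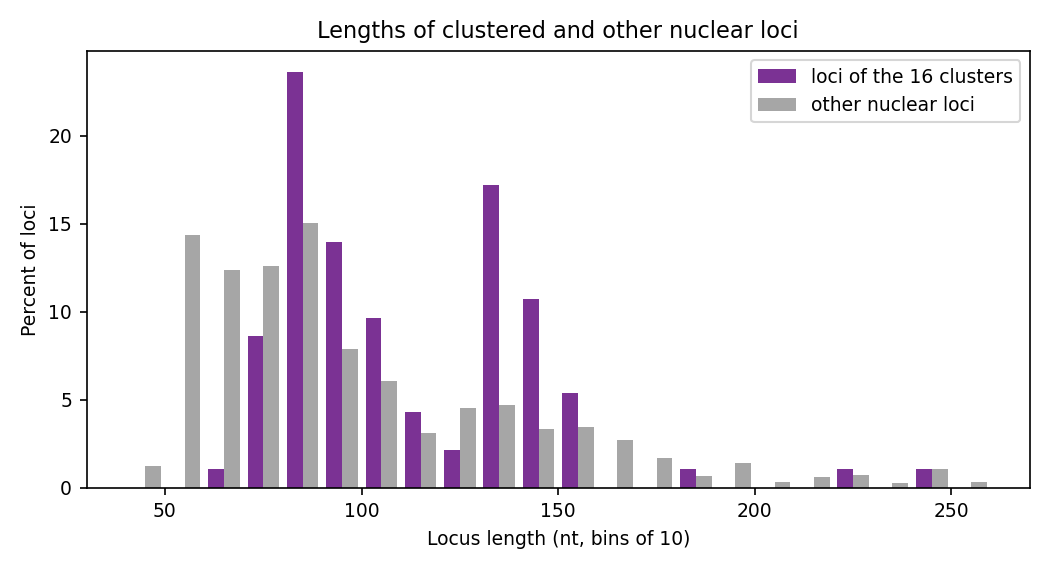
Share of loci (y axis, percent) by length in bins of 10 nt (x axis) for the 93 loci of the 16 clusters and for the 1188 other nuclear loci, of which those of 260 nt or longer are not drawn. The clustered loci have peaks at 80 to 89 nt (23.7%) and 130 to 139 nt (17.2%), and the other loci hold a further share under 70 nt.

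Short and long loci were mixed within rows. Both groups occurred in 12 of the 16 clusters, and 33 of the 77 neighbouring pairs joined loci of unlike length group. Cluster E was wholly short, with loci of 75 to 80 nt, and so was B, with loci of 91 to 102 nt. Clusters G and J were wholly long, at 133 to 153 nt and 134 to 139 nt. The 3 longest loci were JNnc_loci0244 in C, JNnc_loci0639 in I and JNnc_loci0747 in K.

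RefSeq annotation of another rice assembly (ASM3414082v1) lists 611 snoRNA genes, and some of them form rows with the spacing of these clusters. The assemblies differ, so only distances within a row were compared: a shift was sought that placed both ends of a locus within 10 nt of a snoRNA gene on the chromosome of the same number. In 9 clusters (B, C, E, F, K, L, M, N and O) 4 or more loci were met by 1 shift, in all 50 of their 58 loci. All 7 loci of B, 5 of E, 5 of F and 6 of O were met, as were 7 of 8 in C and 7 of 9 in N. In M 5 of 6 were met, and in K and L 4 of 6. With ends within 5 nt, only 2 loci of B, 2 of E and 3 of K were met. Among the 50 loci were 37 short, 12 long and 1 longer one, and the RefSeq gene was the longer in 38. On the other chromosomes the best shift met 4 loci for C and H and fewer for every other cluster, so agreement of 4 loci alone is a weak match. In the remaining clusters (A, D, G, H, I, J and P) at most 3 loci were met. No locus is given a gene name from this comparison, whose minimum of 4 loci was set after the matches were seen.

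Nearly all members were found at both stages. Both lists held 91 of the 93 loci (97.8%, Clopper-Pearson interval 92.4 to 99.7), against 531 of the 1188 other nuclear loci (44.7%). Most of those stand alone: the share was 30.9% for single loci, 81.1% for smaller clusters and 100% for the chromosome 3 array. The members also had more reads, since 79 of them (84.9%) and 32.8% of the other nuclear loci had 20 or more reads over both libraries, so the shares are not at equal depth. At 20 or more reads, all 79 members and 383 of 390 other nuclear loci were in both lists. The members missing from a list were JNnc_loci0165 in B, with 8 reads in stage 2 and 0 in stage 1, and JNnc_loci0246 in C, with 12 and 0 reads. Against a floor of 3 reads in stage 1 JNnc_loci0165 was 1.83-fold higher in stage 2 and JNnc_loci0246 2.74-fold higher, without the counting error of the stage 2 reads. The exact 95% intervals, which include that error, began at 1.17 and 1.90. No member had reads in stage 1 only. No member shared its length and both counts with any other listed locus.

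Together the members held 14026 reads in stage 2 and 6792 in stage 1. They took 11.9% of the stage 2 library (11.7 to 12.1) and 8.42% of the stage 1 library (8.23 to 8.62), which is a ratio of 1.41 (1.37 to 1.46). Relative to the median locus the ratio was 1.02 (0.990 to 1.05), so the direction rests on the scaling. The median member had 98 reads in stage 2, where members ran from 1 to 747, and 42 reads in stage 1, where they ran from 0 to 488. The chromosome 3 array had a ratio of 1.32 (1.27 to 1.38) and the smaller clusters one of 1.33 (1.31 to 1.35), near that of the members. Single nuclear loci had 0.754 (0.744 to 0.763), and all other nuclear loci together 0.969 (0.960 to 0.979).

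Among the 79 members with 20 or more reads, 31 (39.2%) exceeded stage 1 by 2-fold or more in stage 2, and 5 (6.33%) stayed below it by 2-fold or more. Over all 483 loci of that depth, members included, the shares were 32.9% higher and 11.6% lower by this rule. Relative to the median locus, 16 members were higher by 2-fold or more and 13 lower, against 18.2% and 22.2% of all loci of that depth. The median log2 ratio was 0.64 for the members and 0.47 for all these loci. Counting intervals lay above 1 for 46 of the 79 and below 1 for 16, where 48.4% and 22.8% of all these loci did so. The members as a body thus lay close to the whole list, and the differences described next are between clusters and between neighbours.

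Clusters ranged in ratio from 0.866 (0.768 to 0.977) for O to 2.87 (2.55 to 3.24) for K. The interval lay above 1 for 11 clusters, below 1 for O alone, and held 1 for A, D, G and H. Relative to the median locus, 5 lay above 1 (E, I, J, K and N), 5 lay below (A, D, G, L and O) and 6 held 1. The interval of N began at 1.002 and that of L ended at 0.993, so their places depend on the median being treated as known. Without the strongest locus of each cluster, the interval of C (1.01, 0.9003 to 1.14) and that of F (1.08, 0.894 to 1.31) held 1, while A lay above 1 at 1.28 (1.03 to 1.60) and D below 1 at 0.516 (0.421 to 0.631). G and H, whose intervals held 1 either way, changed side, to 1.04 and 0.933. Loci of a cluster also differed among themselves, with a pooled standard deviation of log2 ratios within clusters of 0.998 over loci with 20 or more reads, which includes counting error. In the median cluster the highest locus ratio was 5.54 times the lowest, from 1.79 times in K to 24.0 times in B. These spreads also include counting error, and that of B rests on JNnc_loci0164 with 58 and 2 reads. A member higher by 2-fold or more occurred in 15 clusters and one lower by 2-fold or more in 4, and A, G and H had both.

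**Figure D3:**
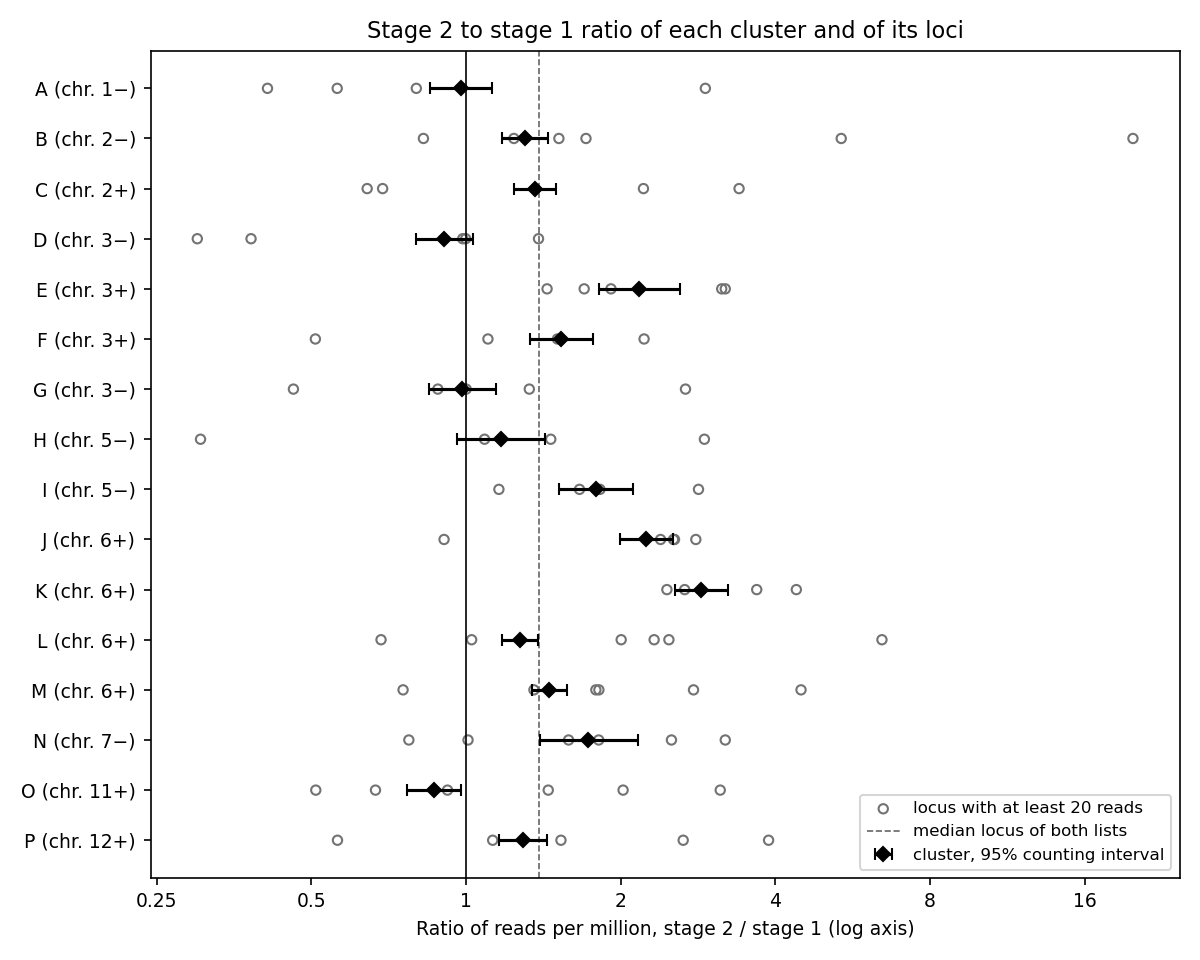
Ratio of reads per 1000000 in stage 2 over stage 1 (x axis, log scale) for each cluster (diamonds, with 95% counting intervals) and for its loci with 20 or more reads (open circles). The solid line marks 1 and the dashed line the median locus at 1.39. K lies farthest right at 2.87. A cluster's value comes from summed reads, so loci of unlike ratio lie to both sides of it by construction.

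The strength of neighbours also differed widely. Compared as reads per 100 nt of locus, the strongest locus of a cluster exceeded the weakest listed in both libraries by 2.79 (L) to 621 (C) times in stage 2, with a median of 10.9 times. In stage 1 the range was 2.74 (J) to 204 (C) times, with a median of 31.6 times. No read minimum was applied here, and the weakest locus of C, JNnc_loci0240, had 1 read at each stage. In K the range of 603 times in stage 2 rests on 3 reads of JNnc_loci0747. The upper ends and the medians thus include the counting error of weak loci. The locus with most reads was the same at both stages in 13 clusters, and in C, M and N it changed. In C and N the stage 1 lead was slight. It was 209 reads against 195 and 192 in C, and 23 against 21 in N. Over the 91 members in both lists, log2 reads of the libraries had a Pearson r of 0.86 and reads a Spearman rho of 0.83. This is a description across loci that share libraries and clusters.

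**Figure D4:**
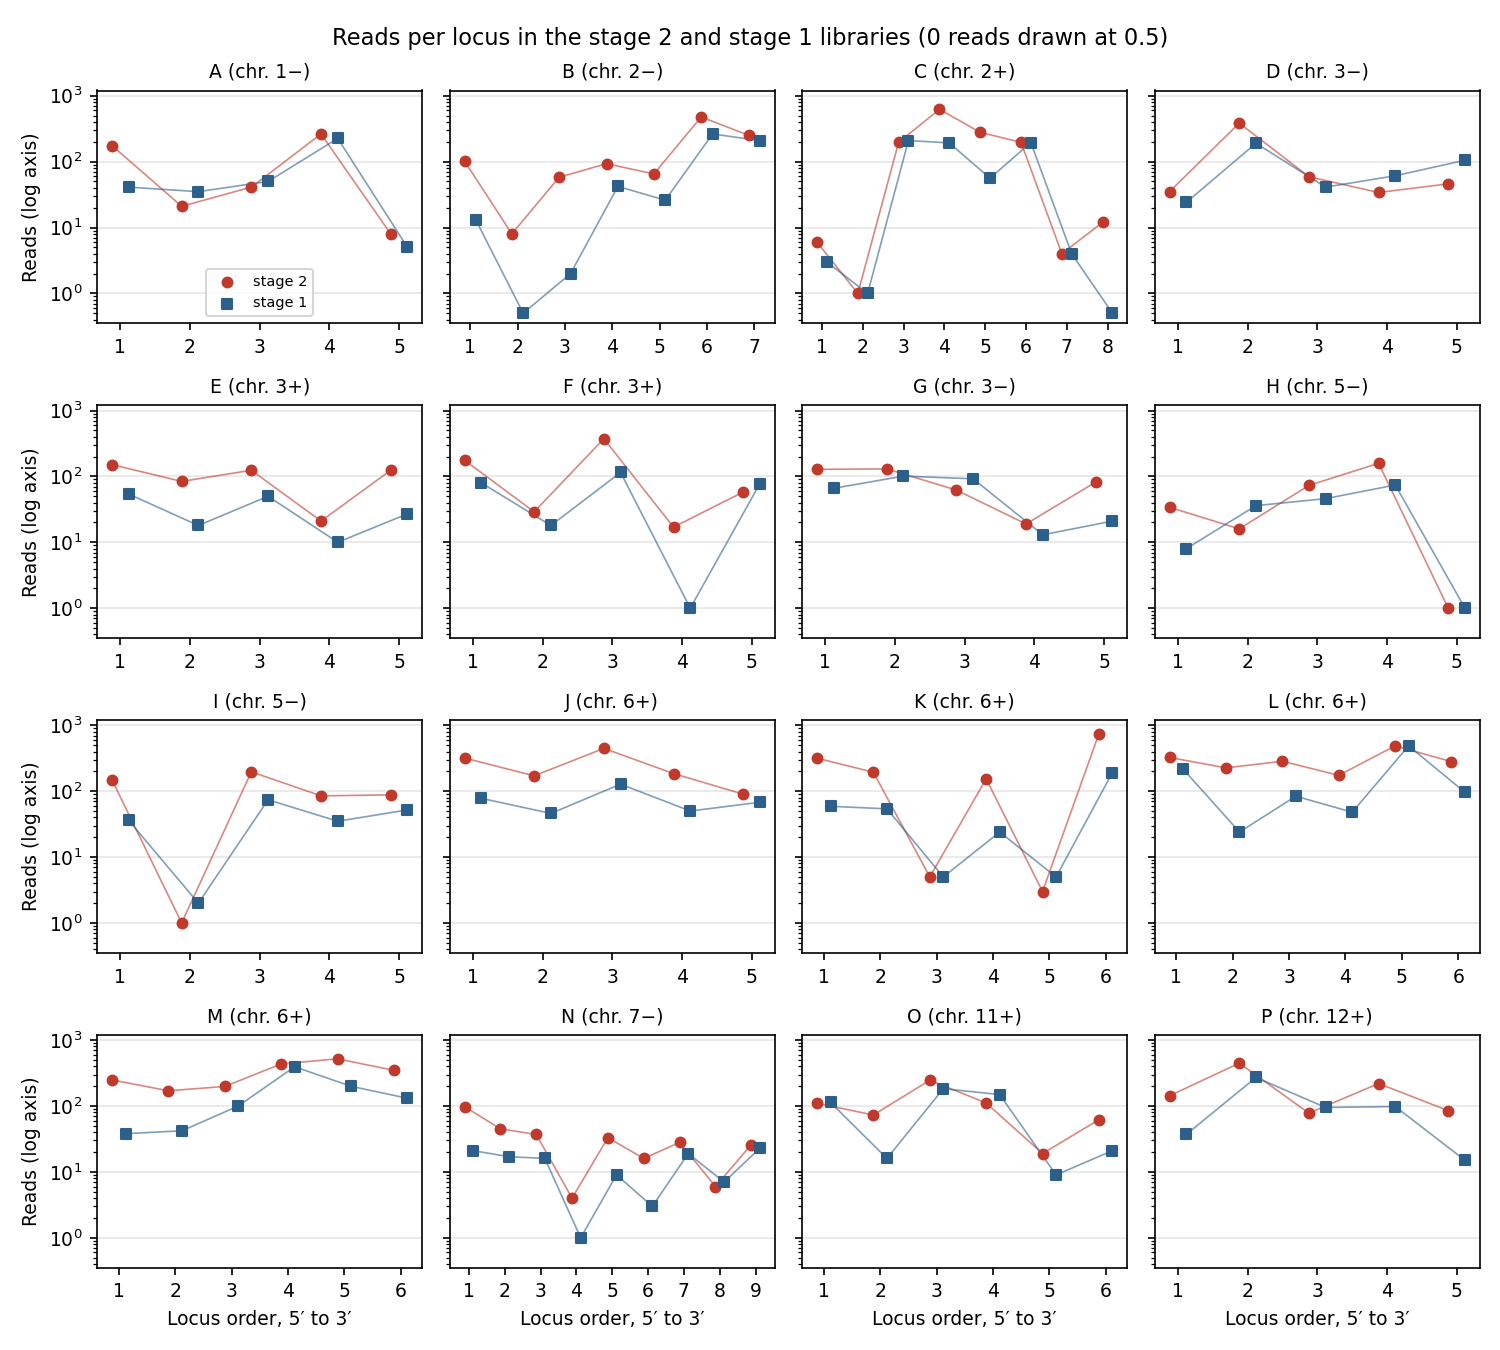
Reads per locus (y axis, log scale) in the order of the loci from 5′ to 3′ (x axis), 1 panel per cluster, for the stage 2 library (circles) and the stage 1 library (squares), with 0 reads drawn at 0.5. Raw reads are shown and the stage 2 library is the deeper, at 117798 against 80651 reads. The stages run in parallel over the first 4 loci of J and draw together at its last, and they lie far apart at the 5′ end of B.

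Cluster K had the highest ratio, on 1420 reads in stage 2 and 339 in stage 1. Its 4 strong loci were JNnc_loci0743 (317 and 59 reads in stage 2 and stage 1), JNnc_loci0744 (194 and 54), JNnc_loci0746 (154 and 24) and JNnc_loci0748 (747 and 192). All 4 were higher in stage 2, with ratios from 2.46 to 4.39, and the lowest of them was still 1.77 relative to the median locus. Of these, 3 measured 100 or 101 nt and JNnc_loci0744 only 65 nt. The loci between them, JNnc_loci0745 of 125 nt and JNnc_loci0747 of 242 nt, were weak at both stages, with 5 and 5 reads and 3 and 5 reads. The strong loci of K were thus all higher in stage 2, and the counts of the weak ones allow no direction.

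Cluster J was the most uniform of the long rows, with 5 loci of 134 to 139 nt and ratios that were alike in its first 4. JNnc_loci0716 had 319 reads in stage 2 and 78 in stage 1, JNnc_loci0717 171 and 46, JNnc_loci0718 447 and 128, and JNnc_loci0719 185 and 50. Their ratios lay between 2.39 and 2.80, and together they were at 2.54 (2.24 to 2.90). The last locus, JNnc_loci0720, had 90 and 68 reads, which put it at 0.906 (0.654 to 1.26). It thus stood below its 4 neighbours, whose intervals all lay above its own.

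Cluster G, the other row of long loci only, had no common direction. JNnc_loci0388 had 82 reads in stage 2 and 21 in stage 1, a ratio of 2.67 (1.64 to 4.55). JNnc_loci0390 had 62 and 92 reads, a ratio of 0.461 (0.329 to 0.644). The other loci lay between, JNnc_loci0389 with 19 and 13 reads, JNnc_loci0391 with 130 and 101 and JNnc_loci0392 with 128 and 66. Summed over the cluster, 421 and 293 reads gave a ratio of 0.984 (0.845 to 1.15), so loci of opposite direction cancelled at this scaling. Relative to the median locus the ratio was 0.709 (0.609 to 0.826), and only JNnc_loci0388 lay above 1, at 1.93.

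Cluster E, the row of the shortest loci, had a ratio above 1 at every locus. Its loci from 5′ to 3′ had 151, 84, 124, 21 and 124 reads in stage 2 and 54, 18, 50, 10 and 27 reads in stage 1. The ratios of JNnc_loci0344 and JNnc_loci0347 were 3.20 (1.90 to 5.65) and 3.14 (2.06 to 4.96), and JNnc_loci0346 was lowest at 1.44 (0.648 to 3.42), an interval that holds 1. JNnc_loci0343 was the strongest at both stages. The cluster as a whole was at 2.17 (1.81 to 2.61), or 1.56 relative to the median locus.

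Cluster B, the other row of short loci only, changed along its length. On the minus strand its 5′ end is the locus of the highest position, JNnc_loci0166, with 102 reads in stage 2 and 13 in stage 1. JNnc_loci0165 followed with 8 and 0 reads and JNnc_loci0164 with 58 and 2 reads, a ratio of 19.9 (5.25 to 168). These 3 loci together were at 7.67 (4.52 to 14.0), or 168 reads against 15. The next 4 loci had 93 and 42 reads (JNnc_loci0163), 65 and 26 (JNnc_loci0162), 476 and 263 (JNnc_loci0161) and 251 and 208 (JNnc_loci0160), and together they were at 1.12 (1.01 to 1.25). Since JNnc_loci0160 and JNnc_loci0161 held most reads of the cluster, its sum gave a ratio of 1.30 (1.17 to 1.44), which turned to 0.938 relative to the median locus. The split into 3 and 4 loci was made after the values were seen.

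Cluster C carried its reads in the middle. From 5′ to 3′ its 8 loci had 6, 1, 196, 621, 278, 196, 4 and 12 reads in stage 2 and 3, 1, 209, 192, 56, 195, 4 and 0 reads in stage 1. The 4 middle loci thus held nearly all reads, 1291 of 1314 in stage 2 and 652 of 660 in stage 1. They differed in direction, with JNnc_loci0243 (77 nt) at 3.40 (2.54 to 4.61) and JNnc_loci0242 (90 nt) at 2.21 (1.88 to 2.62). JNnc_loci0241 (92 nt) was at 0.642 (0.526 to 0.784) and JNnc_loci0244 (183 nt) at 0.688 (0.562 to 0.843). The most abundant locus was JNnc_loci0242 in stage 2 and JNnc_loci0241 in stage 1. The cluster's ratio of 1.36 (1.24 to 1.5) turned to 0.982 relative to the median locus.

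Clusters L and M, on the plus strand of chromosome 6, held the most reads of the 16. M had 1918 reads in stage 2 and 904 in stage 1, and L had 1778 and 957. Each contained 1 strong locus whose interval lay below 1, the only such locus of its row. In L this was JNnc_loci0808 of 116 nt, with 487 and 488 reads, which put its ratio at 0.683 (0.601 to 0.776). It took 27.4% of the cluster's reads in stage 2 and 51.0% in stage 1. Its neighbours JNnc_loci0805, JNnc_loci0806, JNnc_loci0807 and JNnc_loci0809 were at 6.45, 2.32, 2.48 and 2.00. JNnc_loci0804, with 325 and 217 reads, was at 1.03 (0.861 to 1.22), or 0.739 relative to the median locus. L had a ratio of 1.27 (1.18 to 1.38), which turned to 0.917 relative to the median locus, and without JNnc_loci0808 the other 5 loci were at 1.88 (1.69 to 2.10). In M the strong locus was JNnc_loci0813 of 97 nt, with 434 and 394 reads, which put its ratio at 0.754 (0.656 to 0.867). The loci at the 5′ end of M, JNnc_loci0810 with 249 and 38 reads and JNnc_loci0811 with 170 and 42 reads, were at 4.49 (3.18 to 6.49) and 2.77 (1.97 to 3.98). JNnc_loci0814, with 520 and 199 reads, was the most abundant locus of M in stage 2. JNnc_loci0812 was at 1.36 (1.06 to 1.74), or 0.977 relative to the median locus. M as a whole was at 1.45 (1.34 to 1.57), or 1.05 relative to the median locus.

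Clusters A and D lay on the minus strands of chromosomes 1 and 3 and had ratios near 1, or below it relative to the median locus. A had 508 reads in stage 2 and 356 in stage 1, a ratio of 0.977 (0.852 to 1.12), or 0.704 relative to the median locus. Its 5′ locus JNnc_loci0036 had 175 and 41 reads and was at 2.92 (2.07 to 4.21), while the next, JNnc_loci0035, had 21 and 35 reads and was at 0.411 (0.227 to 0.726). JNnc_loci0033 was the strongest at both stages with 263 and 225 reads, and JNnc_loci0034 had 41 and 50 and JNnc_loci0032 8 and 5. D, with 558 and 421 reads, was at 0.907 (0.798 to 1.03), or 0.654 relative to the median locus. D contained 2 of the 5 members lower by 2-fold or more in stage 2, JNnc_loci0304 with 46 and 105 reads at 0.300 (0.207 to 0.428) and JNnc_loci0305 with 34 and 61 reads at 0.382 (0.243 to 0.590). They are the last loci of the row at its 3′ end. JNnc_loci0307 held 68.8% of the cluster's stage 2 reads and 45.1% of its stage 1 reads, with 384 and 190 reads, and the remaining loci, JNnc_loci0306 and JNnc_loci0308, had ratios of 0.985 and 0.998.

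Clusters F and P lay on plus strands and each held loci of opposite direction. In F, JNnc_loci0363 of 83 nt had 373 reads in stage 2 and 115 in stage 1, a ratio of 2.22 (1.80 to 2.76), and JNnc_loci0365 of 143 nt had 58 and 78 reads, a ratio of 0.509 (0.356 to 0.724). JNnc_loci0364 had 17 reads and 1 read, a ratio of 11.6 (1.82 to 486) that is known only loosely at this depth. JNnc_loci0361 had 176 and 80 reads and JNnc_loci0362 29 and 18, and F as a whole was at 1.53 (1.33 to 1.76), or 1.10 relative to the median locus. In P the end loci were the highest, JNnc_loci1257 of 82 nt with 143 and 37 reads at 2.65 (1.83 to 3.91) and JNnc_loci1261 of 140 nt with 85 and 15 reads at 3.88 (2.22 to 7.23). JNnc_loci1259 between them had 78 and 95 reads and was at 0.562 (0.411 to 0.766). JNnc_loci1258 was the most abundant at both stages with 446 and 271 reads, and JNnc_loci1260 had 219 and 98. The sum over P gave 1.29 (1.16 to 1.44), which turned to 0.928 relative to the median locus.

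Repeated series of lengths were found at 3 places. Rows were read from 5′ to 3′, and series of 3 or more neighbours with lengths within 2 nt of one another were sought within and between clusters. The search gave 4 pairs of series. One joined L and N (88, 116 and 133 nt against 88, 115 and 135 nt), but the gaps differed, at 115 and 82 nt in L and 47 and 88 nt in N. The other pairs lay within 1 row or in neighbouring rows, with like distances between the starts of matching loci. Cluster O consisted of the series 82, 77 and 139 nt followed by 83, 77 and 138 nt, with starts 766 to 776 nt apart. N began with 85, 88 and 115 nt and ended with 86, 88 and 117 nt, with starts 1242 to 1258 nt apart and 3 other loci between the series. The gaps were 79 and 47 nt in its first series and 76 and 61 nt in its last. H and I began with 135, 78 and 87 nt and with 136, 76 and 87 nt, and another locus followed in each, of 146 nt in H and 150 nt in I, with starts 1643 to 1647 nt apart. Within these 4 loci the gaps of H and I were identical, at 58, 121 and 107 nt. Loci at like places may be near-identical in sequence, and the sources used here do not say how the authors counted reads that match both, so the split of reads between them is uncertain.

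In H and I the paired loci differed in strength. JNnc_loci0638 in H had 34 reads in stage 2 and 8 in stage 1, and its counterpart JNnc_loci0643 in I had 149 and 36. The H locus thus took 18.6% of the pair's reads in stage 2 and 18.2% in stage 1. For JNnc_loci0637 (16 and 36 reads) and JNnc_loci0642 (1 and 2 reads) the H locus took 94.1% and 94.7%. For JNnc_loci0635 (158 and 74) and JNnc_loci0640 (85 and 35) it took 65.02% and 67.9%, and for JNnc_loci0636 (73 and 46) and JNnc_loci0641 (197 and 74) 27.0% and 38.3%. The intervals of these shares overlapped between stages in all 4 pairs, but they are wide and do not show that the shares were equal. Separate intervals can overlap where shares differ, and the difference itself was not tested. Summed over the 4 loci, the H series was at 1.17 (0.964 to 1.43) and the I series at 2.01 (1.66 to 2.44), and these intervals did not overlap. The sums weigh loci by their reads, and JNnc_loci0637 held 36 of the 164 stage 1 reads in H. Its counterpart JNnc_loci0642 held 2 of 147 in I. The sums thus do not show that paired loci changed differently. JNnc_loci0635 and JNnc_loci0640 were at 1.46 (1.10 to 1.95) and 1.66 (1.11 to 2.54). JNnc_loci0636 and JNnc_loci0641 were at 1.09 (0.741 to 1.61) and 1.82 (1.39 to 2.41). The loci at the 5′ end were at 2.91 (1.32 to 7.28) in H and 2.83 (1.96 to 4.20) in I, and the next at 0.304 (0.158 to 0.562) in H, where 1 and 2 reads leave the ratio of 0.342 in I without a direction (0.0058 to 6.58). The fifth loci did not match in length or strength: JNnc_loci0634 of 88 nt in H had 1 read at each stage, and JNnc_loci0639 of 226 nt in I had 88 and 52 reads. In sum H was at 1.17 (0.962 to 1.43), or 0.843 relative to the median locus, and I at 1.79 (1.52 to 2.12), or 1.29 relative to the median locus.

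In O the series differed in the split between the loci at their 3′ ends. JNnc_loci1198, in the first series, had 246 reads in stage 2 and 183 in stage 1, and its counterpart JNnc_loci1201 had 62 and 21. The first locus took 79.9% of the pair in stage 2 (74.95 to 84.2) and 89.7% in stage 1 (84.7 to 93.5), and these intervals did not overlap. JNnc_loci1196 and JNnc_loci1199, which open the series, had 110 and 113 reads and 111 and 149 reads, at ratios of 0.666 (0.508 to 0.874) and 0.510 (0.395 to 0.657). JNnc_loci1197, with 73 and 16 reads, was at 3.12 (1.80 to 5.75), and its counterpart JNnc_loci1200, with 19 and 9 reads, at 1.45 (0.623 to 3.63). JNnc_loci1201 was at 2.02 (1.22 to 3.49). In both series the opening locus thus had an interval below 1 and the locus of 77 nt behind it a ratio above 1.

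In N, the row with the most loci and few reads (293 in stage 2 and 116 in stage 1), the series at the 5′ end was the higher of the pair in stage 2. From 5′ to 3′ the 9 loci had 98, 45, 37, 4, 33, 16, 28, 6 and 26 reads in stage 2 and 21, 17, 16, 1, 9, 3, 19, 7 and 23 reads in stage 1. The series of JNnc_loci0842, JNnc_loci0841 and JNnc_loci0840 was at 2.28 (1.68 to 3.15). The series of JNnc_loci0836, JNnc_loci0835 and JNnc_loci0834 was at 0.838 (0.565 to 1.25). JNnc_loci0842 took 77.8% of its pair in stage 2 (69.5 to 84.7) and 52.5% in stage 1 (36.1 to 68.5), the 1 pair of the 3 whose intervals did not overlap. The most abundant locus of N was JNnc_loci0842 in stage 2 and JNnc_loci0834 in stage 1. N as a whole was at 1.73 (1.39 to 2.16), or 1.25 relative to the median locus.

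**Figure D5:**
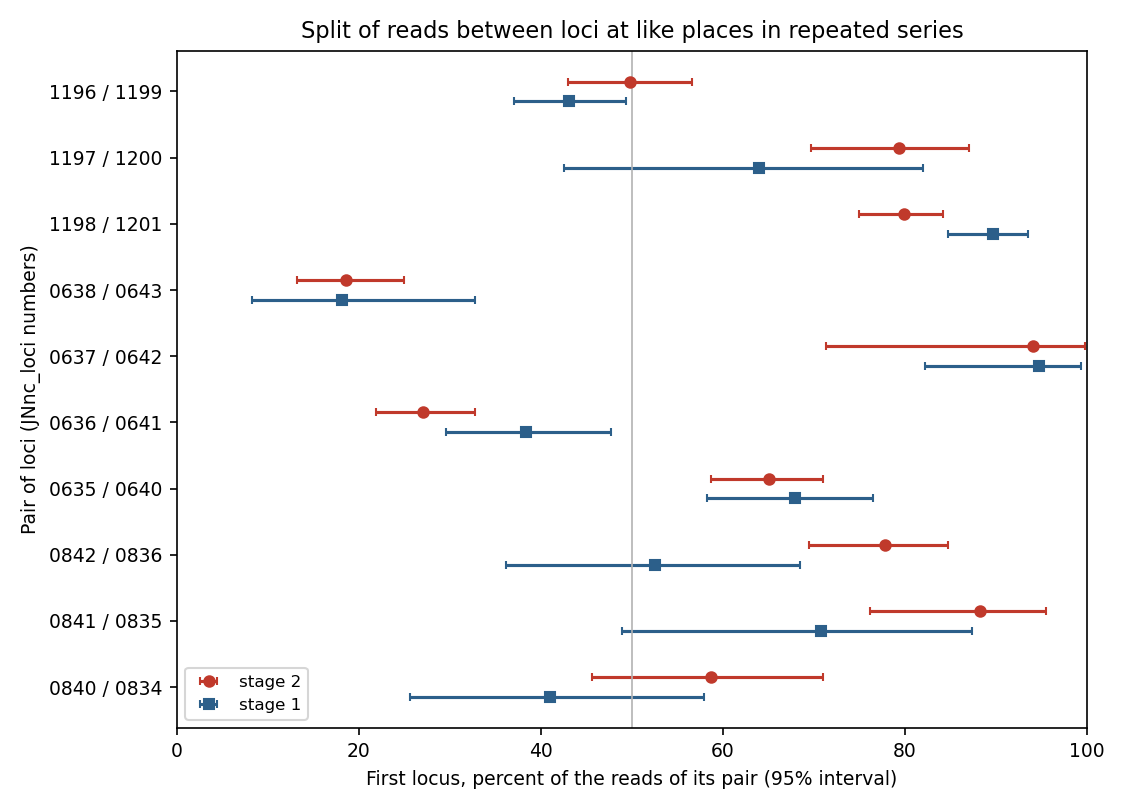
Share of the reads of a pair that fell on its first locus (x axis, percent, with 95% Clopper-Pearson intervals) in stage 2 (circles) and stage 1 (squares), for the 10 pairs of loci at like places in O (top 3), in H and I (middle 4) and in N (bottom 3). The shares of JNnc_loci1198 and JNnc_loci1201 and of JNnc_loci0842 and JNnc_loci0836 differ between stages beyond their intervals. The intervals of the shares in H and I overlap, which does not show that the shares were equal.

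Loci were last compared by their place in the row, a comparison chosen after the values were seen. Of the 15 first loci at the 5′ end with 20 or more reads, 9 were higher by 2-fold or more in stage 2 and 0 lower, with a median ratio of 2.78. Among the 51 loci between the ends, 16 were higher and 4 lower by the same rule, with a median of 1.46. The 13 last loci had 6 higher and 1 lower and a median of 1.81. Where both ends had 20 or more reads, the first locus had the higher ratio in 8 of 13 clusters. The groups overlapped widely. Over all 483 loci with 20 or more reads, 32.9% were higher and 11.6% lower by 2-fold or more, which is the background for each. By length, 18 of 47 short (38.3%) and 13 of 30 long members (43.3%) with 20 or more reads were higher by 2-fold or more. Those lower were 4 (8.51%) and 1 (3.33%), beside the same background. The sums over short and long members gave ratios of 1.48 (1.43 to 1.53) and 1.36 (1.29 to 1.43), and relative to the median locus these were 1.07 and 0.980.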

How the data were processed

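Per the labels' protocols, RNA of 50 to 500 nt was ligated to a 5′ adaptor specific for the end structure and to a 3′ adaptor, reverse transcribed without amplification and read by pyrosequencing. The authors deposited 1 list per library with position, name, strand and a whole number per locus, taken here as raw read counts because the values start at 1 and sum to different totals. The sources used here do not give the aligner, genome build, rule for a locus or treatment of reads that match several places.

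Starts were raised by 1 on the assumption of BED positions, and lengths are end minus start. Strand was taken as that of the RNA. A locus absent from a list was given 0 reads. Ratios of reads per 1000000 library reads had exact conditional binomial 95% intervals, which treat reads as independent molecules. Calls used 2-fold as a rule of size among loci with at least 20 reads, and 0.5 reads were added before log2 values. The floor of 3 reads is 25.5 reads per 1000000 in stage 2 and 37.2 in stage 1. The interval and chaining methods were tested on simulated data. Python 3.11.15, numpy 2.4.6, pandas 2.3.3 and scipy 1.17.1 were used.

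The members and lists were chosen with earlier results of these data known. Named within each cluster were its strongest locus in each library and the highest and lowest ratio at 20 or more reads, and loci with 0 reads in a library. All loci were to be given in order for clusters of 7 or more loci, of extreme ratio or alike in order. Other loci named, and sets within a cluster, were chosen after their values were seen. Alternatives covered the chaining rule, cluster size, scaling, read minimum, strongest loci, equal-count groups and length tolerance. Counting equal-count groups once could change no value, because no member shared its length and both counts with another listed locus.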

Additional observations from a re-analysis of the deposited data

How the results depend on the processing

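With gaps of at most 200 nt the rule gave 9 clusters and 54 loci, because longer gaps divide rows, and with loci of 20 or more reads only 10 clusters and 55 loci, because fewer enter. A smallest cluster of 4 loci gave 165 loci and one of 6 gave 48. With ratios taken relative to the median locus, all members together were at 1.02, 5 clusters had an interval above 1 and 5 below, 16 members were higher by 2-fold or more and 13 lower, and the ratios of B, C, L and P reversed to 0.938, 0.982, 0.917 and 0.928, since this scaling divides every ratio by the same number. All members together were at 1.47 without the strongest locus, and 1.37, 1.34 and 1.46 without clusters J, K and O (leaving out a cluster was chosen after seeing the data). Without the strongest locus of each cluster 2 clusters had an interval below 1. In this setting M moved from 1.45 to 1.99 (1.80 to 2.21) and P from 1.29 to 1.47 (1.26 to 1.71). At 20 or more reads 100% of the members were in both lists. Series of like lengths numbered 0 with equal lengths and 7 within 5 nt. Apart from the ratios of single clusters, the other 30 alternative values stayed within their interval or within 1.5 times their count. They include 6 and 9 clusters with RefSeq snoRNA genes at like spacing when ends were to lie within 5 and 15 nt, also chosen after seeing the data. Of the alternative ratios of single clusters, 20 moved outside the interval of the main ratio, 4 reversed (B, C, L and P) and 24 stayed. The 24 include those with equal-count groups counted once, which could not change. No paired analysis was possible because only 1 library stands for either stage, and for the same reason leaving out a replicate could not be tried. A count of 0 allows up to 25.5 reads per 1000000 in stage 2 and 37.2 in stage 1.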
